A study of Mus musculus with 6 samples.

Results

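A set of 10 genes of meiotic cohesin and the germline was followed in mouse embryonic stem cells (ESCs) depleted of cohesin or condensin, of 21201 genes with a row in the RNA-seq files. They were Smc1b, Rec8, Stag3 and Rad21l, which encode the meiotic versions of cohesin subunits, Sycp1 and Sycp3, which encode parts of the synaptonemal complex, and Dazl, Ddx4, Mael and Tex101, which encode germ cell proteins. The genes were taken by name. Where a gene had several RefSeq transcripts, the transcript with the most counts over the 6 libraries stood for it, which was a choice only for Ddx4. All 10 were found, Rad21l by its position and the other 9 by their RefSeq accession.

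Cohesin is a ring of a pair of SMC proteins, a kleisin and a STAG protein that holds sister chromatids together and also shapes chromatin in interphase. In mitotic cells the ring holds SMC1A, SMC3, RAD21 and STAG1 or STAG2, and in meiosis SMC1B, REC8 or RAD21L, and STAG3 take the corresponding places along chromosome axes on which the synaptonemal complex forms. Most such genes are kept silent in somatic cells by promoter methylation and by repressor complexes, and mouse ESCs are known to transcribe some of them.

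RNA-seq was performed on V6.5 ESCs, a C57BL/6 by 129 mouse line, after lentiviral delivery of short hairpin RNAs (shRNAs) and puromycin selection, and the question was how the loss of each SMC complex alters expression. There was 1 library for a control hairpin against GFP, 1 for a hairpin against SMC1 (the cohesin subunit encoded by Smc1a), 2 for CAPH2, a subunit of condensin II, and 2 for SMC2, a subunit of both condensins. The pairs for CAPH2 and SMC2 are different hairpins against the same target (#1 and #2), each tested once, so their spread holds differences between hairpins as well as between cultures. All 6 libraries shared the cell line, the vector and selection with puromycin at 0.5 and then 1 µg/ml for 48 hours each, and all cells had been kept on irradiated fibroblast feeders and grown for 1 passage without them. RNA of 652000 cells was used for each library. The counts summed to between 25467427 and 31337313 a library, and the synthetic ERCC RNAs added by cell number took 0.948% to 1.77% of the counts. In the SMC1 library Smc1a was at an RPKM of 14.4, below the 36.1 to 46.9 of the other libraries. Ncaph2, which encodes CAPH2, was at 16.9 and 27.9 with its hairpins and at 54.0 to 80.2 elsewhere. Smc2 was at 18.8 with SMC2 #1 and slightly higher with #2, both below the 26.6 of the GFP library. The SMC1 and CAPH2 libraries had Smc2 at 40.6 to 42.3, so GFP was the lowest library without an SMC2 hairpin. ESC markers were abundant, and control cells had Pou5f1, which encodes OCT4, at 1285.5.

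Promoter letters are shown for Smc1b, Stag3, Sycp1, Ddx4 and Mael, the members that passed the test in at least 1 comparison with GFP and hold CACGTG or GCGGGAA, because CACGTG (the E-box bound by MAX and MGA complexes) and GCGGGAA (a form of the E2F motif) are the motifs by which repressors are known to reach many germline promoters. Both motifs were chosen with the expression results known. Of the 10 members 8 are also on the list below of genes silenced by promoter methylation or by E2F6 and MGA. Motif and CpG shares above those of all promoters are therefore no independent result. In the 250 bases before the start of each transcript (mm9, read 5′ to 3′ on the gene's strand, both strands searched), CACGTG stood in 5 of the 10 promoters, those of Stag3, Sycp1, Sycp3, Ddx4 and Mael, and in 6.90% of 21198 promoters of the same length. GCGGGAA stood in 3 of the 10, those of Smc1b, Sycp3 and Ddx4, and in 5.16% of all promoters. The promoters of Sycp3 and Ddx4 held both, as did 0.443% of all promoters. The promoters of Rec8, Rad21l, Dazl and Tex101 held neither. Of these Rec8 passed with SMC1, while Sycp3, with both motifs, passed with no target. The capitals mark the motif, and the Smc1b letters hold GCGGGAA on the opposite strand as TTCCCGC. The motifs do not overlap each other. For Stag3 only the bases around the motif are shown, since an annotated exon reaches into the bases close to the start. For Smc1b only the stretch outside a neighbouring exon is shown. The windows are chr15:84962388-84962528 for Smc1b, minus strand, chr5:138721555-138721584 for Stag3, plus strand, chr3:102740024-102740273 for Sycp1, minus strand, chr13:113442519-113442768 for Ddx4, minus strand, and chr1:168168876-168169125 for Mael, minus strand.
Smc1b: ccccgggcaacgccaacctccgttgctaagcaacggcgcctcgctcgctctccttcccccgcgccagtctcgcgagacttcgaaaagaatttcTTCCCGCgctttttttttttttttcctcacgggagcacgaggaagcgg
Stag3: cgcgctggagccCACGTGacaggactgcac
Sycp1: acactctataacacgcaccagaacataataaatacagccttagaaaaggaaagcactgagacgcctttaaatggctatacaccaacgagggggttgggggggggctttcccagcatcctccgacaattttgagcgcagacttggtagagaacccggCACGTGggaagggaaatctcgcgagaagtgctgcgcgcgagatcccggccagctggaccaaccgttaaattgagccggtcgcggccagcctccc
Ddx4: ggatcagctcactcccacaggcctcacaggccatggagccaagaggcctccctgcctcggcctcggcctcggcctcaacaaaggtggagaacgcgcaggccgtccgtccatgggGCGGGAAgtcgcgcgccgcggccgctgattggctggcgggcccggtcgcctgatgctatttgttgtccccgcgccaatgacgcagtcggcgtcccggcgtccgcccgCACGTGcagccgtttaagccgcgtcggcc
Mael: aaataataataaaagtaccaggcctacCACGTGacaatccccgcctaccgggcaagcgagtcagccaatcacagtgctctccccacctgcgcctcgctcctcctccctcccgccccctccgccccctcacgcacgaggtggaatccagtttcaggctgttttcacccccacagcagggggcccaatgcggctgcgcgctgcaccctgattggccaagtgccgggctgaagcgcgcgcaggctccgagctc
The E-box began 170 bases before the start of Stag3, 94 before Sycp1, 29 before Ddx4 and 223 before Mael, and GCGGGAA began 48 bases before Smc1b and 136 before Ddx4. A match of letters is a description and not a bound site. The promoters of 9 of the 10 genes held at least 10 CpG dinucleotides, against 53.6% of all promoters, where the median was 11. The exception was Rad21l, with 1. Ddx4 had 31, Stag3 26, Smc1b 25 and Dazl 23, and Rec8 had 10.

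Of the 10 genes, 8 were transcribed in control ESCs, counting an RPKM of 1 or more as expressed, and 57.7% of all 21201 genes reached it. RPKM is scaled to exon length, so these levels can be compared between genes, except that of Sycp3, which may include reads of an overlapping gene on the other strand. Stag3 stood highest in the GFP library at an RPKM of 22.3 (95% exact Poisson interval 21.3 to 23.3, which like the other intervals covers counting error only). Mael at 9.65, Sycp3 at 9.29, Rec8 at 8.18 and Ddx4 at 6.92 followed, and each of these had an interval that overlapped that of its neighbour in this order. Dazl at 3.40 and Smc1b at 2.91 overlapped each other and stood apart from Ddx4 above and Sycp1 below. Sycp1 was at 1.04 (0.822 to 1.30) from 77 counts, so its place above 1 was not secure at this depth. Tex101 and Rad21l stood below 1 in every library. A level of mRNA in a pool does not tell whether few cells or all cells transcribe a gene.

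**Figure D1:**
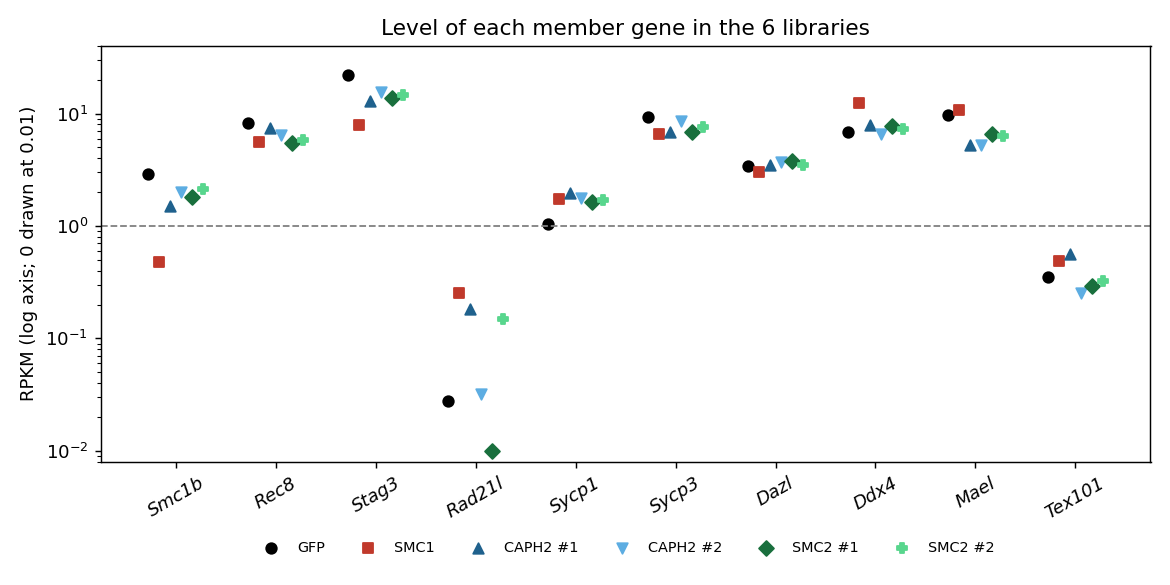
RPKM of the 10 genes (log axis) in the 6 libraries, 1 point a library, with the dashed line at an RPKM of 1 and a value of 0 drawn at 0.01. Smc1b fell below 1 only in the SMC1 library (0.476), Stag3 was highest in the GFP library (22.3), and Rad21l and Tex101 stood below 1 in all 6.

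Changes were tested with edgeR over 15141 genes in a fit of all 6 libraries, where the lone GFP and SMC1 libraries are assumed to vary like the hairpin pairs. The p-values therefore measure the spread between hairpins. Every comparison with GFP shares its single library. The 9 members with at least 30 counts in all were tested, and Rad21l, with 22, was not. In the SMC1 library 5 of these 9 passed an adjusted p of 0.05, beside 47.0% of all genes tested, so the share is near the background. Of the 5, 3 were lower (23.5% of all genes) and 2 higher (23.5%). With CAPH2 3 of 9 passed, beside 7.62% of all genes, 2 lower (3.67%) and 1 higher (3.95%). With SMC2 2 of 9 passed, beside 6.63%, both lower (3.0%, and 3.63% of all genes were higher). By a change of at least 2-fold in the deposited RPKM, with no test, Smc1b and Stag3 passed with SMC1, beside 14.9% of 12240 genes expressed in the GFP library, and no member did with CAPH2 (1.06%) or SMC2 (0.735%). The median log2 change of the 9 was -0.21 with SMC1, -0.26 with CAPH2 and -0.36 with SMC2, while that of all genes tested was -0.0054, -0.015 and -0.017.

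Scaling to the ERCC RNAs in place of the main TMM scaling raised the median log2 change of all genes by 0.90 with SMC1, by 0.35 with CAPH2 and by 0.61 with SMC2. It left none of the 9 members past the threshold in any comparison with GFP. The ERCC share of the counts was 1.11% with CAPH2 #1 and 1.77% with CAPH2 #2, so this scaling moves these hairpins apart. The spread behind every test then includes that difference, and a lost call does not show that a change is absent. All-gene calls with SMC1 were 3558 higher and 3564 lower in the main scaling, and 1916 higher and 113 lower in the ERCC scaling. All changes below are therefore relative to the bulk of mRNA in the same library. In such bulk samples fewer cells of a type and less RNA per cell cannot be told apart.

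Of the 4 meiotic cohesin genes, Stag3, Smc1b and Rec8 fell with SMC1, Rec8 turning to a log2 change of 0.32 in the ERCC scaling, and Rad21l could not be tested. Stag3 (NM_016964, chromosome 5 from 138721737 to 138753621, mm9), which encodes the STAG protein of meiotic cohesin, had 2026 counts with the control hairpin and 640 with SMC1. It had 1287 and 1244 with the CAPH2 hairpins and 1321 and 1275 with the SMC2 hairpins. As RPKM this was 22.3 in control cells, 7.87 after SMC1 depletion, 13.1 and 15.6 after CAPH2 depletion and 13.9 and 14.8 after SMC2 depletion. Stag3 was thus highest in the GFP library and lowest in the SMC1 library, with the 4 condensin libraries between them. The RPKM with SMC1 was 35.4% of that in control cells (32.3 to 38.7 by an exact binomial interval at 95%). Stag3 fell by 1.53 on the log2 scale with SMC1 (SE 0.14, adjusted p = 4.65e-05), by 0.65 with CAPH2 (SE 0.12, adjusted p = 0.0223) and by 0.64 with SMC2 (SE 0.12, adjusted p = 0.0197). Without either SMC2 library the CAPH2 and SMC2 calls were lost, at adjusted p values of 0.0635, 0.0637, 0.113 and 0.119, while the SMC1 call remained. Under ERCC scaling the log2 change of Stag3 was -0.63 with SMC1 (adjusted p = 0.470), and the 12 tested alternatives gave adjusted p values of 7.07e-31 to 0.470.

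Smc1b (NM_080470, chromosome 15 from 84895119 to 84962387), which encodes the meiotic counterpart of SMC1A, had the largest change with SMC1 among the 9 members tested. Its counts were 253 in control cells, 37 with SMC1, 142 and 153 with CAPH2 and 166 and 176 with SMC2. The RPKM was 2.91 with GFP, 0.476 with SMC1 (0.335 to 0.657 by counting error), 1.51 and 2.01 with CAPH2 and 1.82 and 2.13 with SMC2. The SMC1 library was lowest by a wide margin, and all 4 condensin libraries stood between it and the GFP library. Smc1b fell by 2.64 with SMC1 (SE 0.30, adjusted p = 0.000126), to 16.4% of the GFP level in RPKM (11.3 to 23.2). The log2 change was -0.75 with CAPH2 (SE 0.21, adjusted p = 0.0561) and -0.56 with SMC2 (SE 0.21, adjusted p = 0.123), neither of which passed. Leaving out CAPH2 #2 carried the CAPH2 change past the threshold (log2 -0.97, adjusted p = 8.78e-05), and without either CAPH2 hairpin the SMC2 change passed as well (adjusted p = 0.0133 and 0.0112). With a CAPH2 hairpin left out, the spread rests on the SMC2 pair alone, and calls over all genes rose with SMC1, CAPH2 and SMC2. Members that pass only then, here and below, are not set apart from other genes by it. None of the 4003 stretches of 36 bases in the Smc1b transcript matched Smc1a within 2 mismatches, and the same held for Stag3 against Stag1 and Stag2 and for Rec8 and Rad21l against Rad21. This comparison concerns reads placed on the wrong gene. Whether the SMC1 hairpin acts on Smc1b itself was not tested.

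Rec8 (NM_020002, chromosome 14 from 56237007 to 56244227), the kleisin that separase cuts at meiotic divisions, had 360 counts with GFP, 220 with SMC1, 352 and 249 with CAPH2 and 253 and 242 with SMC2. The RPKM values in that order were 8.18, 5.59, 7.38 and 6.47, and 5.49 and 5.79. The SMC2 libraries and the SMC1 library were the lowest and lay close together. Rec8 fell by 0.58 with SMC1 (SE 0.18, adjusted p = 0.0219), which DESeq2 did not call (adjusted p = 0.144, with 0.00351 to 0.704 over the tested alternatives). The log2 change was -0.54 with SMC2 (adjusted p = 0.0586) and -0.26 with CAPH2 (adjusted p = 0.290), neither past the threshold. Without either CAPH2 hairpin the SMC2 change passed (adjusted p = 0.00565 and 0.00407).

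Rad21l (NM_001114677, chromosome 2 from 151471140 to 151494269), the other meiotic kleisin, had 1 count with GFP, 8 with SMC1, 7 and 1 with CAPH2, and 0 and 5 with SMC2. A count of 0 in the SMC2 #1 library allows an RPKM of up to 0.0807. The RPKM with SMC1 was 0.252 (0.109 to 0.497). This was 895.5% of the GFP level, with an exact binomial interval of 120.1% to 39734% that lies above 100%, while the intervals of the other 4 libraries include 100%. The gene was not tested in the fit, and the ratio rests on 1 count in the GFP library.

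Stag1 and Stag2, the mitotic counterparts of Stag3, rose with all 3 targets. Stag1 rose by 0.99 (SE 0.099, adjusted p = 6.46e-05) and Stag2 by 1.15 (SE 0.097, adjusted p = 2.47e-05) with SMC1, and both rises held in the ERCC scaling (adjusted p = 0.0414 and 0.0257). With CAPH2 Stag1 rose by 0.38 and Stag2 by 0.60 (adjusted p = 0.0345 and 0.0198), and with SMC2 by 0.41 and 0.52 (adjusted p = 0.0281 and 0.0171). In the ERCC scaling none of these 4 changes with CAPH2 and SMC2 passed, and all 4 stayed above 0. Stag3 made up 45.1% of the RPKM summed over the 3 STAG genes in the GFP library. It made up 11.9% with SMC1, 25.1% and 29.0% with CAPH2 and 26.9% and 28.2% with SMC2. Such shares do not depend on the scaling of the libraries. Since the GFP library had the highest Stag3 and the lowest Stag1 and Stag2 of the 6, each difference from GFP rests on that single library. With SMC1 the Stag3 share was also below that of every CAPH2 and SMC2 library, and Stag1 and Stag2 were above theirs. This comparison does not use GFP, and its SMC1 side is 1 library. The meiotic versions of the other subunits were minor: Smc1b made up 3.11% to 7.47% of the RPKM of Smc1a and Smc1b together, and Rec8 3.62% to 5.84% of that of Rec8, Rad21l and Rad21. Rad21 and Smc3, which encode the mitotic kleisin and the SMC partner common to both rings, had log2 changes of 0.075 (adjusted p = 0.514) and 0.018 (adjusted p = 0.885) with SMC1.

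**Figure D2:**
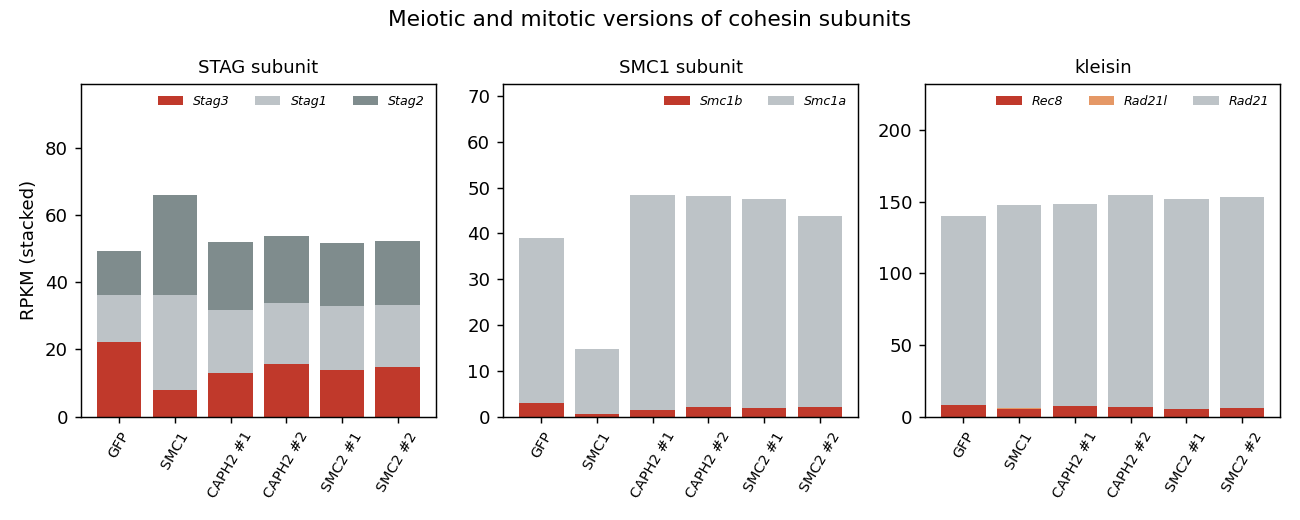
Stacked RPKM of the meiotic (red, and orange for Rad21l) and mitotic (grey) versions of the STAG subunit, the SMC1 subunit and the kleisin in the 6 libraries, 1 bar a library. Stag3 makes up 45.1% of the sum with GFP and 11.9% with SMC1, while Smc1b and Rec8 are small beside Smc1a and Rad21 throughout.

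Of the synaptonemal complex genes, Sycp1 rose with SMC1 and CAPH2, and Sycp3 passed with none of the 3 targets. Sycp1 (NM_011516, chromosome 3 from 102622422 to 102740023), which encodes the transverse filament that joins the axes of paired chromosomes, had 77 counts with GFP, 116 with SMC1, 156 and 114 with CAPH2 and 126 and 119 with SMC2. The RPKM was 1.04 with GFP and 1.63 to 1.95 in the 5 knockdown libraries, so the GFP library was the lowest. Sycp1 rose by 0.72 with SMC1 (SE 0.24, adjusted p = 0.0345) and by 0.82 with CAPH2 (SE 0.21, adjusted p = 0.0475), and the log2 change with SMC2 was 0.67 (SE 0.21, adjusted p = 0.0886). These calls were near the threshold. Without either SMC2 library the SMC1 change lost it (adjusted p = 0.0721), as did the CAPH2 change (adjusted p = 0.108), and the CAPH2 change also without CAPH2 #1 (adjusted p = 0.0505). Without either CAPH2 hairpin the SMC2 change passed (adjusted p = 0.0226 and 0.0262). DESeq2 did not call Sycp1 with SMC1 (adjusted p = 0.217, with 0.0127 to 0.217 over the tested alternatives).

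Sycp3 (NM_011517, chromosome 10 from 87922332 to 87935980), which encodes a lateral element protein, had 224 counts with GFP, 143 with SMC1, 180 and 182 with CAPH2 and 175 and 173 with SMC2. The RPKM was 9.29, 6.63, 6.88 and 8.63, and 6.93 and 7.56 in that order, highest with GFP and lowest with SMC1, where CAPH2 #2 came close to GFP. The log2 change was -0.52 with SMC1 (SE 0.23, adjusted p = 0.0847), -0.28 with CAPH2 (adjusted p = 0.359) and -0.36 with SMC2 (adjusted p = 0.256), none of which passed. Without CAPH2 #1 or CAPH2 #2 the SMC1 change passed (adjusted p = 0.0342 and 0.0288). The annotated exons of Sycp3 share 52.2% of their bases with Chpt1 on the other strand, and the library kit did not mark strand, so reads of the pair cannot be told apart there.

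Of the germ cell genes, Ddx4 rose with SMC1 and Mael fell with both condensin targets. Ddx4 (NM_001145885, chromosome 13 from 113388543 to 113442518) encodes the VASA RNA helicase, a classic germ cell marker. It had 424 counts with GFP, 683 with SMC1, 524 and 354 with CAPH2 and 496 and 424 with SMC2. The RPKM was 12.5 with SMC1 and 6.61 to 7.89 in the other 5 libraries, which include GFP at 6.92, so the SMC1 library alone stood apart. Ddx4 rose by 0.82 with SMC1 (SE 0.16, adjusted p = 0.00233), to 180.3% of the GFP level in RPKM (159.5 to 204.0). The log2 change was 0.052 with CAPH2 (SE 0.14, adjusted p = 0.848) and 0.11 with SMC2 (SE 0.14, adjusted p = 0.651). In the ERCC scaling Ddx4 was higher still with SMC1 (log2 1.71) and missed the threshold (adjusted p = 0.0567).

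Mael (NM_175296, chromosome 1 from 168131516 to 168168875) encodes Maelstrom, which acts in transposon silencing with piRNAs. It had 321 counts with GFP, 323 with SMC1, 189 and 154 with CAPH2 and 228 and 199 with SMC2. The RPKM was 9.65 with GFP and 10.9 with SMC1, against 5.24 and 5.29 with CAPH2 and 6.55 and 6.31 with SMC2. The 4 condensin libraries were thus all below both others, with no overlap. Counting error allows 4.52 to 6.04 with CAPH2 #1 and 4.49 to 6.20 with #2, far wider than the SD of 0.036 between them given next. Mael fell by 0.89 with CAPH2 (SE 0.15, adjusted p = 0.0209), to an RPKM of 5.27 ± 0.036 (SD, n = 2 hairpins), and by 0.59 with SMC2 (SE 0.15, adjusted p = 0.0447), to 6.43 ± 0.170 (SD, n = 2 hairpins). The log2 change with SMC1 was 0.14 (SE 0.17, adjusted p = 0.522). Without either SMC2 library the CAPH2 change missed the threshold (adjusted p = 0.0635 and 0.0637), as did the SMC2 change (adjusted p = 0.169 and 0.222), and DESeq2 did not call the SMC2 change (adjusted p = 0.193, with 0.00240 to 0.981 over the tested alternatives). In the ERCC scaling the change with SMC2 turned to 0.018.

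Dazl (NM_010021, chromosome 17 from 50418719 to 50432924), an RNA-binding protein gene required for germ cell development, varied least of the 8 expressed members. It had 215 counts with GFP, 170 with SMC1, 241 and 207 with CAPH2 and 252 and 211 with SMC2, an RPKM of 3.01 to 3.80. Its log2 change was -0.21 with SMC1 (SE 0.19, adjusted p = 0.397), 0.074 with CAPH2 and 0.10 with SMC2. In RPKM the SMC1 library was at 88.5% of GFP, and counting error allows 71.9% to 108.7%. Tex101 (NM_019981, chromosome 7 from 25453031 to 25457069), which encodes a surface protein of male germ cells, had 5 to 14 counts in the 6 libraries and an RPKM of 0.252 to 0.569. Its log2 change with SMC1 was 0.45 with an SE of 0.74, so no difference was detectable at this depth.

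**Figure D3:**
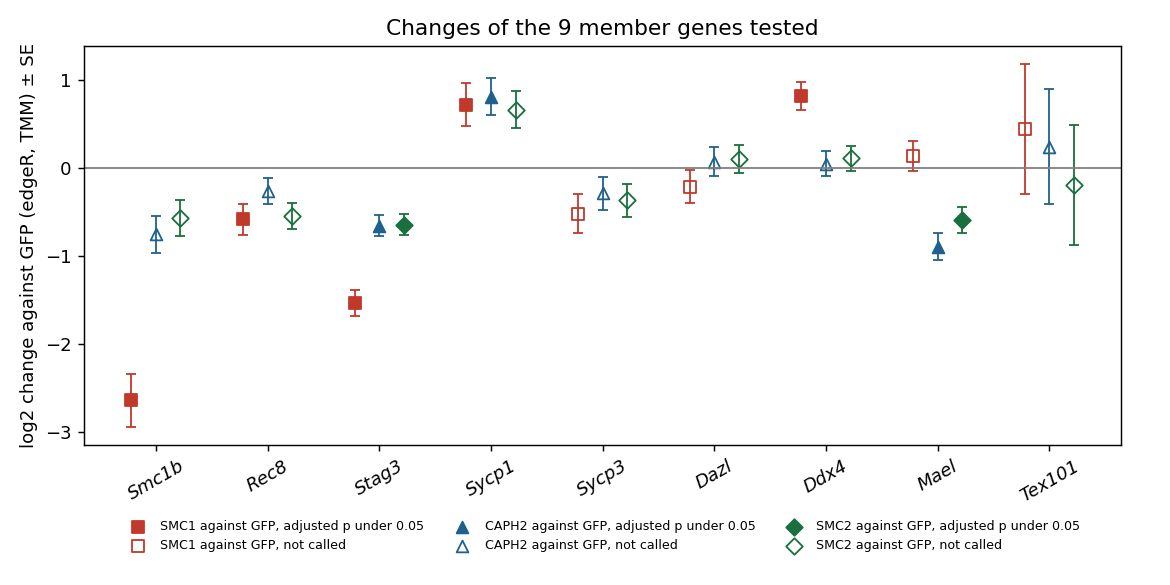
Log2 change against GFP (edgeR, TMM scaling) of the 9 genes tested, with bars of 1 SE, for SMC1 (squares), CAPH2 (triangles) and SMC2 (diamonds). Filled symbols passed an adjusted p of 0.05. Smc1b (-2.64) and Stag3 (-1.53) lie lowest with SMC1, Ddx4 is above 0 with SMC1 (0.82) and near 0 with CAPH2 (0.052), and Mael is below 0 with CAPH2 (-0.89) and SMC2 (-0.59).

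The SMC1 library was set against the mean of the CAPH2 and SMC2 groups, a comparison into which the level of the GFP library does not enter. Of the 9 members 4 passed, beside 43.1% of all genes tested, 2 lower (20.3%) and 2 higher (22.8%). Smc1b alone differed by at least 2-fold in RPKM, as did 9.45% of the expressed genes. Smc1b was lower with SMC1 by a log2 difference of -1.98 (SE 0.27, adjusted p = 0.000340), and Stag3 by -0.88 (SE 0.12, adjusted p = 0.000355). Ddx4 was higher by 0.74 (SE 0.12, adjusted p = 0.000933) and Mael by 0.88 (SE 0.13, adjusted p = 0.000604). Mael passed in all 12 tested alternatives, and the other 3 missed the threshold only in the ERCC scaling, at adjusted p values of 0.0721 for Smc1b, 0.716 for Stag3 and 0.105 for Ddx4. The 5 others did not pass. Between SMC2 and CAPH2 edgeR called 0 of the 9 members and DESeq2 called 0, while 2 had an unadjusted p under 0.05, Mael (log2 0.30 in SMC2 relative to CAPH2, SE 0.13) and Rec8 (-0.29, SE 0.13). Of all genes 0.0132% were called in that comparison, and 3.14% had an unadjusted p under 0.05.

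Wider lists of germline genes were measured in the same way. Of 40 meiotic prophase genes, 35 had a row and 23 were expressed in control cells, and of the 33 tested 14 fell and 3 rose with SMC1, beside 23.5% of all genes in each direction. Their median log2 change was -0.24. Stra8, the retinoic acid target that marks entry into meiosis, fell by 2.45 (SE 0.31, adjusted p = 0.000212), from an RPKM of 4.60 to 0.858. Tex14, a gene of germ cell bridges, fell by 2.43, Hsf2bp, a meiotic recombination gene, by 1.92, and Syce2, which encodes a central element protein, by 1.23 from an RPKM of 79.3, the highest of the list. Trip13, whose product remodels HORMA proteins in mitosis and meiosis, was at 39.4 with GFP and 43.9 with SMC1 (log2 0.12, adjusted p = 0.328). With CAPH2 2 of the 33 fell and 0 rose (3.67% and 3.95% of all genes), and with SMC2 1 fell and 0 rose (3.0% and 3.63%). In the ERCC scaling Stra8, Tex14, Hsf2bp and Syce2 kept log2 changes below 0 with SMC1, and of the list 0 then fell and 2 rose, beside 113 and 1916 of all 15141 genes.

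Among 20 piRNA and nuage genes, 14 were expressed, and of the 19 tested 6 fell and 5 rose with SMC1, near the 23.5% of all genes in each direction, with a median of 0.21. Tdrd12, which encodes a tudor domain protein, fell by 1.74 from an RPKM of 39.6 to 12.1, and Pld6, a mitochondrial gene of piRNA processing, by 1.17. Rnf17 fell by 0.86, a direction that turned to 0.039 in the ERCC scaling. Tdrd1 rose by 2.02 (SE 0.26, adjusted p = 0.000214) from an RPKM of 0.738 to 3.06. Tex19.1 was at 47.7 with GFP and 40.1 with SMC1 and did not pass (log2 -0.28, adjusted p = 0.0906). In the ERCC scaling 6 of the 19 rose and 0 fell, beside 1916 and 113 of all 15141 genes. With CAPH2 1 of the 19 fell (3.67% of all genes). With SMC2 edgeR called 0, as did DESeq2, while 3 had an unadjusted p under 0.05 (26.3% of all genes).

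A list of 25 genes known to be silenced in somatic cells by promoter methylation or by E2F6 and MGA holds 8 of the 10 members. Of its 24 tested genes 9 fell and 5 rose with SMC1 (23.5% of all genes each way), 3 fell and 1 rose with CAPH2 (3.67% and 3.95%), and 2 fell with SMC2 (3.0%). The 2 with SMC2 were the members Stag3 and Mael, and those with CAPH2 include the members Stag3, Mael and Sycp1. The list thus largely repeats the member result for the condensin targets. In the ERCC scaling 1 fell and 3 rose with SMC1, beside 113 and 1916 of all 15141 genes. Hormad1, a meiotic axis gene, fell by 1.63 with SMC1 (adjusted p = 0.000301) and Dnajb13, a sperm flagellum gene, by 3.41 (SE 0.48, adjusted p = 0.000380), to an RPKM of 0.273. Rpl10l and Cyct fell by 1.02 and 0.65 from an RPKM of 33.7 and 29.6, the latter turning to 0.25 in the ERCC scaling. Rpl10l resembles Rpl10, so its reads may be shared. The repressors themselves were all expressed. Of 24 genes of these complexes and of DNA methylation 5 rose and 7 fell with SMC1, near the 23.5% of all genes each way. In the ERCC scaling 1 rose and 0 fell, beside 1916 and 113 of all 15141 genes. Dnmt3b, a de novo DNA methyltransferase, rose by 0.82 and Yaf2, a member of a polycomb complex, by 1.18. Uhrf1, which recruits the maintenance methyltransferase, fell by 0.60 and Wdr5 by 0.74, and both turned positive in the ERCC scaling (0.29 and 0.16). Dnmt3l was at an RPKM of 148.2 with GFP and 151.3 with SMC1.

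The 14 primordial germ cell genes moved most, and they include genes that ESCs also use, since 12 were expressed in the GFP library and Zfp42 is also on the ESC marker list. Of 13 tested 9 fell and 2 rose with SMC1, beside 23.5% of all genes in each direction, with a median of -2.03. Prdm14, a factor required for germ cell specification and for naive ESCs, fell by 3.85 (SE 0.21, adjusted p = 3.19e-06) from an RPKM of 19.9 to 1.40. Tfap2c fell by 3.16 and Ifitm1 fell by 2.68. Ifitm3 fell by 1.20 and Zfp42 by 2.03, and Lin28a rose by 0.71. The median stayed below 0 in the ERCC scaling, at -1.13, where 3 genes fell and 1 rose, beside 113 and 1916 of all 15141 genes. With CAPH2 3 of 13 fell (3.67% of all genes) and with SMC2 2 of 13 (3.0%). Of 22 late gamete genes only Zp3, an egg coat gene, reached an RPKM of 1 in control cells, and 12 had 0 counts there. Of the 4 tested, Zp3 fell by 1.51 with SMC1 (adjusted p = 0.00510) and 3 did not pass, among them Izumo1 (RPKM 0.934 with GFP) and Ldhc (0.426).

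**Figure D4:**
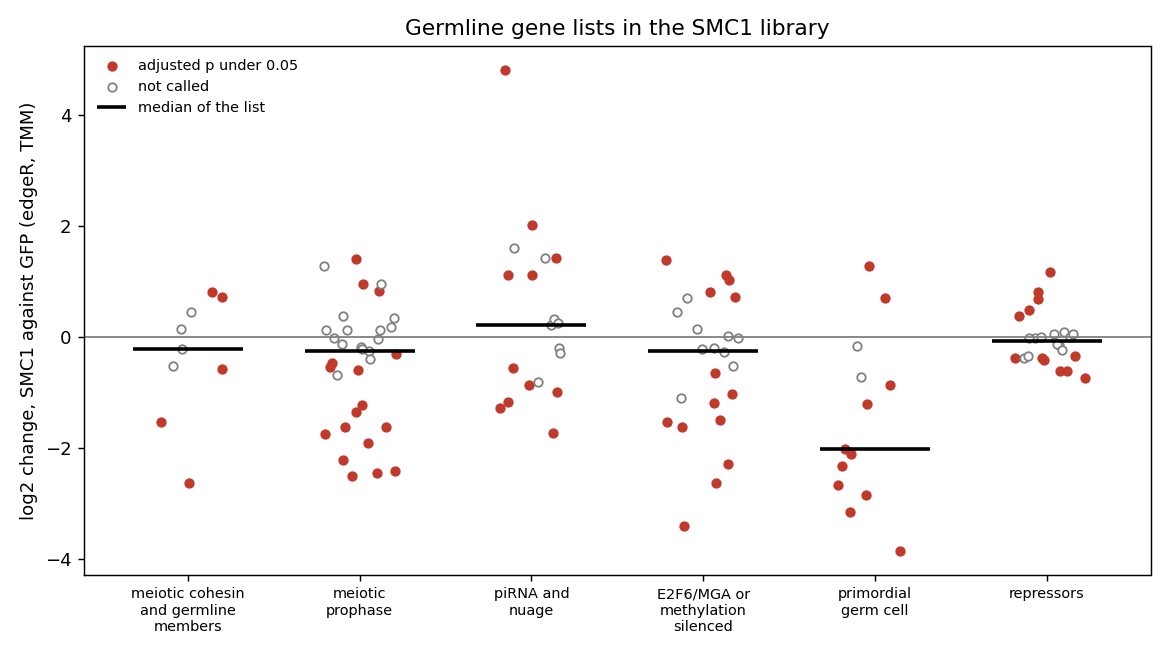
Log2 change with SMC1 against GFP (edgeR, TMM scaling), 1 point a gene, for the members and 5 germline gene lists, with the list median as a bar. Filled points passed an adjusted p of 0.05. The medians lie between -0.24 and 0.21, apart from that of the primordial germ cell genes (-2.03). The late gamete genes, with 4 tested and a median of -1.47, are not drawn.

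Markers of other cell types moved in the SMC1 library beside these changes, where 23.5% of all genes were called in each direction. In the ERCC scaling 113 of all 15141 genes fell there and 1916 rose. Of the ESC markers 9 of 10 fell with SMC1 (2 in the ERCC scaling), and their summed RPKM was 2119.6 there against 3275.5 to 3995.3 in the other libraries. Esrrb fell by 3.32, Klf4 fell by 3.12 and Fgf4 fell by 2.32, while Tdgf1 did not pass. Of the feeder fibroblast markers 5 of 7 tested rose (3 in the ERCC scaling), with a summed RPKM of 92.5 with SMC1, 46.4 with GFP and 49.5 to 72.4 with the condensin hairpins. Col1a1 was at 20.8 with GFP and 39.4 with SMC1, and Dcn and Lum, which mark fibroblasts, were at or below 0.560 in every library. Even so Dcn rose with SMC1, from 1 count to 19 (log2 4.21, SE 0.88, adjusted p = 0.00358), and remained past the threshold in the ERCC scaling (adjusted p = 0.000936). Of the primitive endoderm markers 4 of 8 rose and 1 fell (summed RPKM 52.7 with SMC1 and 31.4 to 38.3 elsewhere), of the trophectoderm markers 3 of 4 rose (277.5 against 85.5 to 128.3), and of the neural markers 4 of 4 rose (84.7 against 37.6 to 51.9). Of the mesendoderm markers 1 rose and 1 fell of 4 (23.2 against 15.7 to 25.5). Of 4 tested markers of Sertoli cells and the somatic gonad 1 fell and 0 rose (7.18 against 10.7 to 15.1), and Cyp17a1 was at 0 in the GFP library. In the ERCC scaling 3 primitive endoderm, 3 trophectoderm, 3 neural, 1 mesendoderm and 0 gonad markers rose with SMC1, and 0 of these lists' genes fell. The part of these cell types in the changes of Stag3, Smc1b, Rec8, Ddx4 and Sycp1 was not tested.

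For Stag3, Ddx4 and Rec8, the members with the most counts, the genes with the most similar profile over the 6 libraries were sought by Pearson's r of log2(RPKM + 0.1) among 12384 genes with a mean RPKM of at least 1. These points share libraries and are given as a description. Stag3 was most like Stat2 (r = 0.999) and Abca7 (r = 0.998), and 832 genes had an r above 0.95 with it. Ddx4 was most like Gtf2b (r = 0.998) and Cpne8 (r = 0.997), with 463 such genes, and Rec8 most like Agpat4 (r = 0.991) and Clpb (r = 0.984), with 13.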

How the data were processed

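RNA-seq libraries from 6 knockdown samples of V6.5 mouse ESCs were analysed. Alignment by the authors was to mm9 with Bowtie, dropping reads that had more than 2 alignments, and exonic reads were counted for every RefSeq transcript. The deposited files hold raw counts and RPKM, the latter normalised by the authors for transcript length and library size. The kit did not mark strand, so a gene and its antisense partner share reads.

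The 26073 RefSeq rows were named by accession (25353) or by overlap with a gene of the same build (572), and 148 had no symbol. For each gene the row with the most counts was used (21201 genes). The members and gene lists were chosen with earlier results of these data known. Genes with at least 30 summed counts (15141) were tested with edgeR 4.0.16 (TMM, quasi-likelihood, 4 groups, 2 residual degrees of freedom, Benjamini-Hochberg adjustment over all genes, threshold 0.05), and the common biological coefficient of variation was 0.0683. Adjusted p values are from this fit unless another tool is named. On simulated counts for SMC1 against GFP over 15141 genes, 95 of 100 genes changed 2-fold and 99 of 100 changed 4-fold were recovered with 18 false calls among 212. Only 200 genes were changed, drawn from those with more counts, and every gene and library was given the same spread. The simulation therefore does not cover genes with few counts, or GFP and SMC1 libraries that vary more than assumed. The alternatives were DESeq2 1.42.0 size factors, the DESeq2 test, total counts, ERCC scaling, other filters, all RefSeq rows, a replicate block, leaving out each hairpin and 2-fold RPKM ratios without a test. Intervals are exact Poisson for a level and exact binomial for a ratio (95%, scipy 1.17.1, Python 3.11.15) and cover counting error only, and 3 counts set the limit for a count of 0. All 10 members were named in every library. From each wider list the 3 genes highest in the GFP library and up to 4 with the lowest adjusted p with SMC1 were named. Promoter letters came from the mm9 reference genome.

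The replicate numbers of the CAPH2 and SMC2 libraries name different hairpins and do not pair the samples.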

Additional observations from a re-analysis of the deposited data

Results flagged for a closer look

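For 4 of the 9 members tested, the effect of the SMC1 hairpin differed from the mean effect of the CAPH2 and SMC2 hairpins in the edgeR test of that difference. The log2 difference (SMC1 minus condensin) was -1.98 for Smc1b (adjusted p = 0.000340) and -0.88 for Stag3 (adjusted p = 0.000355), where the decrease against GFP was larger with SMC1. It was 0.74 for Ddx4 (adjusted p = 0.000933), which rose with SMC1 and had log2 changes of 0.052 and 0.11 with CAPH2 and SMC2. It was 0.88 for Mael (adjusted p = 0.000604), which fell with both condensin targets and had a log2 change of 0.14 with SMC1. The SMC1 side of each difference is 1 library. Of all genes tested 43.1% passed the same test.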

How the results depend on the processing

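In ERCC scaling the calls over all genes were 2029 for SMC1 (1916 higher, 113 lower), 4 for CAPH2, 0 for SMC2, 1551 for SMC1 against condensin (1399 higher, 152 lower, against 3448 and 3079) and 4 for SMC2 against CAPH2. Members called were then 0 for SMC1, CAPH2 and SMC2 and 1 (Mael) for SMC1 against condensin, against 5, 3, 2 and 4. Log2 changes that turned positive in this scaling were, for SMC1, Rec8 0.32, Sycp3 0.38 and Dazl 0.69, for CAPH2, Rec8 0.11 and Sycp3 0.033, for SMC2, Smc1b 0.044, Rec8 0.067, Sycp3 0.24, Mael 0.018 and Tex101 0.41, and for SMC1 against condensin, Rec8 0.23, Sycp1 0.39, Sycp3 0.24 and Dazl 0.13. None of these passed in ERCC scaling. The DESeq2 test gave 4819 calls over all 15141 genes for SMC1, 763 for CAPH2 and 754 for SMC2. It gave 4258 for SMC1 against condensin and 6 for SMC2 against CAPH2. Of the 9 members it called 3 for SMC1, 2 for CAPH2, 1 for SMC2 and 4 for SMC1 against condensin. With no filter on low counts the calls over all genes were 2076 for CAPH2, 1785 for SMC2 and 5 for SMC2 against CAPH2. For SMC2 against CAPH2 the calls were 1 each with DESeq2 size factors, with total counts and with at least 10 counts in 2 libraries, against 2. By a 2-fold RPKM ratio with no test the counts were 1828 for SMC1, 130 for CAPH2, 90 for SMC2, 1157 for SMC1 against condensin and 25 for SMC2 against CAPH2, with 2, 0, 0 and 1 members in the first 4.

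The deviations of same-numbered CAPH2 and SMC2 libraries correlated at 0.12 over genes, with only 2 numbers. With the replicate block (no paired samples are implied by the labels) the calls over all genes were 3337 for CAPH2, 3042 for SMC2 and 72 for SMC2 against CAPH2, and members called were 5 for SMC2, against 2.

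Leaving out 1 hairpin library at a time gave 1 to 3489 calls for CAPH2 (1 and 5 without an SMC2 library), 0 to 3018 for SMC2 (1 and 0 without an SMC2 library) and 1 to 331 for SMC2 against CAPH2. The number of members called changed with the hairpin left out for CAPH2, SMC2 and SMC1, and so did the calls over all genes. For SMC1 against condensin the number of members stayed the same, while the calls over all genes changed. Each of these fits leaves 1 library in a group, so a steady number does not set the members apart from other genes. Without CAPH2 #1 the log2 changes of Ddx4 and Tex101 with CAPH2 turned to -0.062 and -0.47, and that of Sycp1 in SMC1 against condensin to 0.013, none of them past the threshold. Over the hairpins left out these ranged from -0.062 to 0.16, from -0.47 to 0.66 and from -0.051 to 0.013. The cause of these differences was not tested. The number of expressed members was 7 or 8 under all 4 other thresholds. Of 458 member values under the alternatives, 398 kept their direction and their side of the threshold (for the RPKM ratio, moved by less than 1 SE), 27 lost and 16 gained the threshold, and 17 changed sign. With 1 GFP and 1 SMC1 library, no spread of those conditions was measured. The low counts of Rad21l and Tex101 limit the precision of their values.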
